A study of Mus musculus with 90 samples.

Results

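Proteasome genes were followed across 90 subcutaneous mouse melanomas that had been treated with an antibody to PD-L1 or with control injections. The set comprised every gene whose symbol in the probe annotation begins with Psma, Psmb, Psmc, Psmd, Psme or Psmf and a digit, each represented by its probe set with the highest mean. This rule gave 45 of the 18193 genes that could be named by a single symbol. Of these, 4 are interferon-inducible and are called the immune genes below: Psmb8, Psmb9, Psmb10 and Psme1. The other 41 comprise the constitutive core, the regulatory cap, chaperones and other activators, with 2 genes that share only the name: Psmc3ip, a meiotic recombination factor, and Psme3ip1, a protein that binds Psme3. A probe set annotated to Psme2 carries a further symbol and was therefore not used.

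The proteasome is the main protease of the cytosol and nucleus. Its barrel-shaped core is closed by outer rings of alpha subunits and cuts proteins in inner rings of beta subunits, of which Psmb5, Psmb6 and Psmb7 carry the active sites; a cap of ATPases and non-ATPase subunits binds ubiquitin-tagged proteins, unfolds them and feeds them in. Under interferon gamma, and constitutively in many leukocytes, newly built cores take up Psmb8, Psmb9 and Psmb10 in place of Psmb5, Psmb6 and Psmb7, and the activator made of Psme1 and Psme2 docks on the core. The resulting immunoproteasome cuts many of the peptides that class I molecules show to CD8 T cells, which is the setting in which these genes are usually studied in tumours.

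All samples shared a genotype, labelled Hgftg;Cdk4R24C/R24C, on the mouse strain B6.cBrd, and all were subcutaneous melanoma allografts. The Responder (27 arrays), NonResponder (23), Relapse (6), Stabilization (3) and GrowthDelay (2) groups received anti-mouse PD-L1 mIgG1 D265A, an antibody whose Fc part carries a mutation, at 10 mg/kg. Controls received Normal IgG at 10 mg/kg (IgG, 22 arrays) or PBS at 10 ml/kg (PBS, 7). A Responder tumour had lost at least 5% of its volume and was taken after 2 to 12 doses, and a NonResponder tumour had grown and was taken at matching times. A Relapse tumour had shrunk below measurement and returned after 4 to 10 doses, a Stabilization tumour met the Responder definition but had stopped changing between successive measurements, and a GrowthDelay tumour appeared only after treatment had begun. The labels do not say whether each array came from a separate mouse, so the p-values measure the spread between these arrays. The sample titles fall into number ranges, called title series here, whose meaning the labels do not give. The larger series holds 53 arrays (17 Responder, 14 NonResponder, 14 IgG, 3 PBS, 3 Relapse, 2 GrowthDelay) and the smaller holds 25 (10 Responder, 9 NonResponder, 3 Relapse, 3 Stabilization), with 8 IgG and 4 PBS arrays in ranges of their own.

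Values are log2 signals, and array medians lay between 5.71 and 5.90. In the 90 arrays the mean level of the 4 immune genes ran from 11.22 for Psmb10 to 11.98 for Psme1. All but 2 of the 45 genes had a mean of at least 6; the exceptions were Psma8 (4.79), a testis subunit, and Psmb11 (3.72), a thymus subunit, whose values lie near the dim end of the array. The melanocyte genes Dct, Sox10 and Mitf were bright in both main groups, with means of 13.97, 11.56 and 12.16 in Responder and 14.17, 11.53 and 12.33 in NonResponder, whereas Tyr was dim (3.56 and 3.61). A melanocyte score, the mean of 6 such genes, was lowest in Responder 20 (7.19), Responder 21 (7.20), Stabilization 1 (7.36) and NonResponder 14 (8.74). Responder 20 and NonResponder 14 also carried high B cell scores (10.56 and 10.24), and Responder 21 a high skeletal muscle score (13.82). These 4 arrays had leukocyte scores of 12.01 to 12.77 and some of the lowest mean levels of the 41 other genes (9.96 to 10.24), so the main results are given with and without them. That exclusion was chosen after the data had been seen.

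Sequences just upstream of the start sites were examined for letters known from interferon and stress control, because the 4 immune genes and the constitutive genes they replace moved in opposite directions in the results below. Of the 45 genes, 38 had a promoter of 250 bases in the RefSeq table (GRCm38.p6). The letters of the interferon gamma activated site, TTCNNNGAA, were searched on both strands and occurred in 7.02% of 32851 promoters of the same length. Among the 38 genes only Psmb8 held a match, TTCCCAGAA, which begins at position -97 from its start. The letters TGACNNNGC, a core of the antioxidant response element, occurred in 10.2% of promoters and in 5 of the 38, Psmb5, Psmb6, Psmc6, Psmd12 and Psmd9. The core of the interferon-stimulated response element, read as GAAA, a gap of 2 bases and GAAA again, occurred in 2.98% of promoters and in Psmb3, Psmd4 and Psmd9, but in none of the 4 immune genes. The first sequence below is that of Psmb8 (chr17:34197945-34198194, plus strand), and the other two are those of the constitutive catalytic genes Psmb5 (chr14:54617996-54618245, minus strand) and Psmb6 (chr11:70525107-70525356, plus strand). They are shown because each is an immune or constitutive catalytic gene with a match. Psmb9, Psmb10 and Psme1, which were also higher in Responder tumours below, held no match to any of these patterns. Each runs 5′ to 3′ and ends at the base before the start site, and capitals mark the match.
Psmb8: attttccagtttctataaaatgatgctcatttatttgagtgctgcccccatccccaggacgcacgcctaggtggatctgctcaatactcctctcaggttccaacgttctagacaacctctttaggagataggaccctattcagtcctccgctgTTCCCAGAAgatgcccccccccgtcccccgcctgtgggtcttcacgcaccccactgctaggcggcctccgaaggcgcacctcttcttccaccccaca
Psmb5: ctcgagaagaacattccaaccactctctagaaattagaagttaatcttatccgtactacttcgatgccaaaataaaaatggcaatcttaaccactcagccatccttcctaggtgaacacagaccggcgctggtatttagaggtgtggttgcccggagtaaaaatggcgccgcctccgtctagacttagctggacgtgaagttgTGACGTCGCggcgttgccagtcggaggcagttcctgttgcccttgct
Psmb6: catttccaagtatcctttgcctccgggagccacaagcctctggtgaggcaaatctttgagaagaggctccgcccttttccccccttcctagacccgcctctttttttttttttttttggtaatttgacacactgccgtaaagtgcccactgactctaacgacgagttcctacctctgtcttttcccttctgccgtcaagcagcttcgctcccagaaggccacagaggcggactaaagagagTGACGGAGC
In Psmb5 the match TGACGTCGC begins at position -47, and in Psmb6 the match TGACGGAGC begins at position -9. Binding was not measured in this series, and a match is a description of the letters only.

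The 4 immune genes were all higher in Responder than in NonResponder tumours. Psmb10, the inducible trypsin-like subunit, ran from 10.73 through a median of 11.57 to 12.12 in Responder arrays and from 10.34 through 11.18 to 11.72 in NonResponder arrays. The ranges overlapped, with the Responder values shifted upward. The difference was 0.37 ± 0.11 on the log2 scale (± SE; means 11.50 ± 0.40 SD, n = 27, and 11.13 ± 0.35 SD, n = 23), or 1.29-fold, with a limma adjusted p of 0.0071. Psmb9, the inducible caspase-like position of the core, ran from 11.22 through 12.09 to 12.58 against 10.83 through 11.79 to 12.35, a difference of 0.31 ± 0.11 (limma adjusted p = 0.0208). Psmb8, the inducible chymotrypsin-like subunit, ran from 11.42 through 12.19 to 12.56 against 11.29 through 11.89 to 12.52, a difference of 0.23 ± 0.08 (0.0225). Psme1, the alpha subunit of the inducible activator, ran from 11.53 through 12.14 to 12.52 against 11.47 through 11.95 to 12.61, a difference of 0.21 ± 0.08 (0.0233). Each of these differences was smaller than the SD of the Responder arrays, and no member of the set separated the groups without overlap. The share of all genes that did so was not computed. Over all 18193 genes 17.2% were called higher and 29.8% lower at an adjusted p under 0.05. After the array medians were set equal the shares were 11.3% higher and 50.2% lower, the differences of the 4 genes were 0.13 to 0.29, and only Psmb10 remained called (limma adjusted p = 0.0169). Without the 4 arrays of low melanocyte score the differences were 0.26 to 0.44 and all 4 genes were called.

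**Figure D1:**
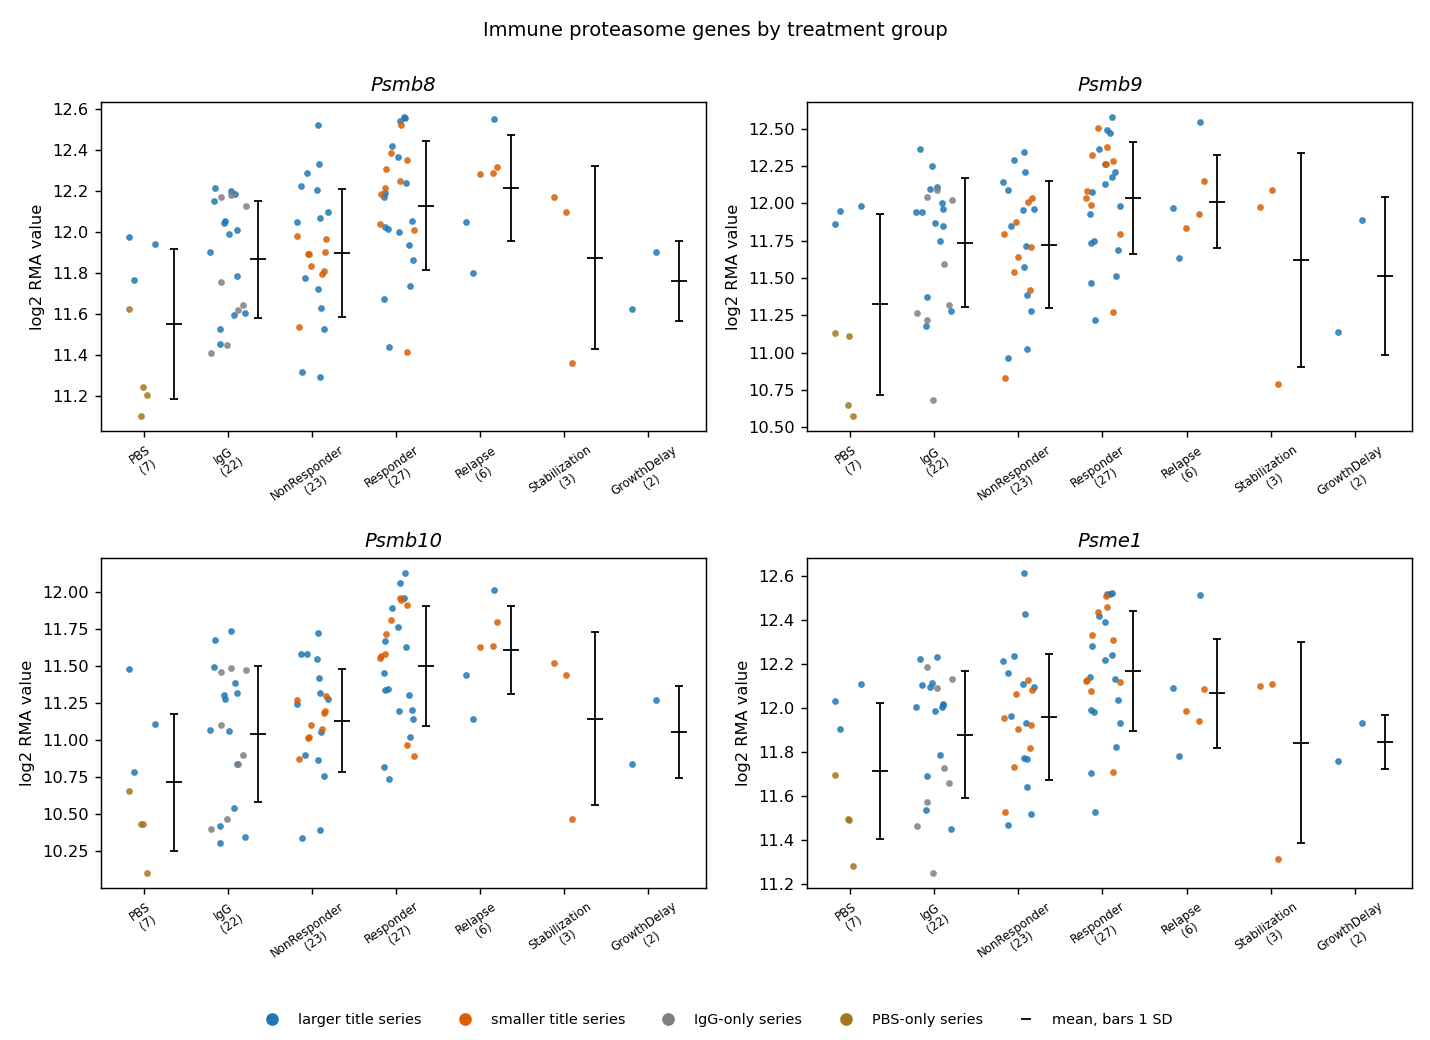
Log2 RMA values of Psmb8, Psmb9, Psmb10 and Psme1 in the 7 groups; each point is an array, coloured by title series, and the bar beside each group is the mean with 1 SD. The Responder and Relapse means are the highest 2 for Psmb8, Psmb9, Psmb10 and Psme1, and all groups overlap.

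Markers of infiltrating cells moved with the immune genes in the same comparison. All 5 leukocyte genes were called higher in Responder, with differences of 0.88 (Cd53) to 1.501 (Laptm5), and so were 4 of 5 T cell genes, from 0.77 (Cd3e) to 2.00 (Cd3g), Cd4 being the exception. All 5 macrophage genes were higher by 0.83 to 1.32. The leukocyte score ran from 8.28 to 12.77 in Responder and from 7.75 to 12.71 in NonResponder arrays, and the T cell score from 6.12 to 9.88 and from 5.72 to 9.89. Of 6 melanocyte genes only Pmel was called, lower by 0.93. None of 4 B cell genes and none of 5 skeletal muscle genes was called. The part of these cells in the change of the immune genes was not tested, and in whole tumours fewer cells of a type and less RNA per cell cannot be told apart.

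Genes that act upstream and downstream of the immunoproteasome rose in the same comparison. All 8 genes of the interferon gamma signal list were called higher, among them Ifng itself (1.52 ± 0.25), the transcription factor Irf8 (1.40 ± 0.23), Irf1 (0.71 ± 0.14) and the feedback inhibitor Socs1 (0.72 ± 0.13). Of 12 genes of the class I pathway, 10 were called higher. They included the peptide transporter genes Tap1 (0.74 ± 0.14) and Tap2 (0.85 ± 0.16), the editing factor Tapbp (0.73 ± 0.15), the class I transactivator Nlrc5 (0.59 ± 0.11), and the heavy chain gene H2-K1 (0.28 ± 0.06). Canx (0.08 ± 0.04) and Pdia3 (0.07 ± 0.09), general chaperones of the endoplasmic reticulum, were not called.

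The constitutive catalytic genes went the other way, and all 3 were called lower in Responder tumours. Psmb5, the chymotrypsin-like subunit that Psmb8 replaces, ran from 10.89 through 11.53 to 11.76 in Responder and from 11.18 through 11.60 to 12.04 in NonResponder arrays. It fell by 0.15 ± 0.04 (limma adjusted p = 0.0039). Psmb6, the caspase-like subunit that Psmb9 replaces, ran from 11.16 through 11.41 to 11.99 against 11.04 through 11.70 to 12.15 and fell by 0.19 ± 0.07 (0.0240). Psmb7, the trypsin-like subunit that Psmb10 replaces, ran from 10.75 through 11.91 to 12.39 against 11.47 through 11.95 to 12.96 and fell by 0.23 ± 0.08 (0.0131). Most arrays of the groups shared the same range, and the lowest values of Psmb5 and Psmb7 came from Responder 20, at 10.89 and 10.75. Without the 4 arrays of low melanocyte score the falls were 0.13, 0.17 and 0.23, and all 3 remained called.

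**Figure D2:**
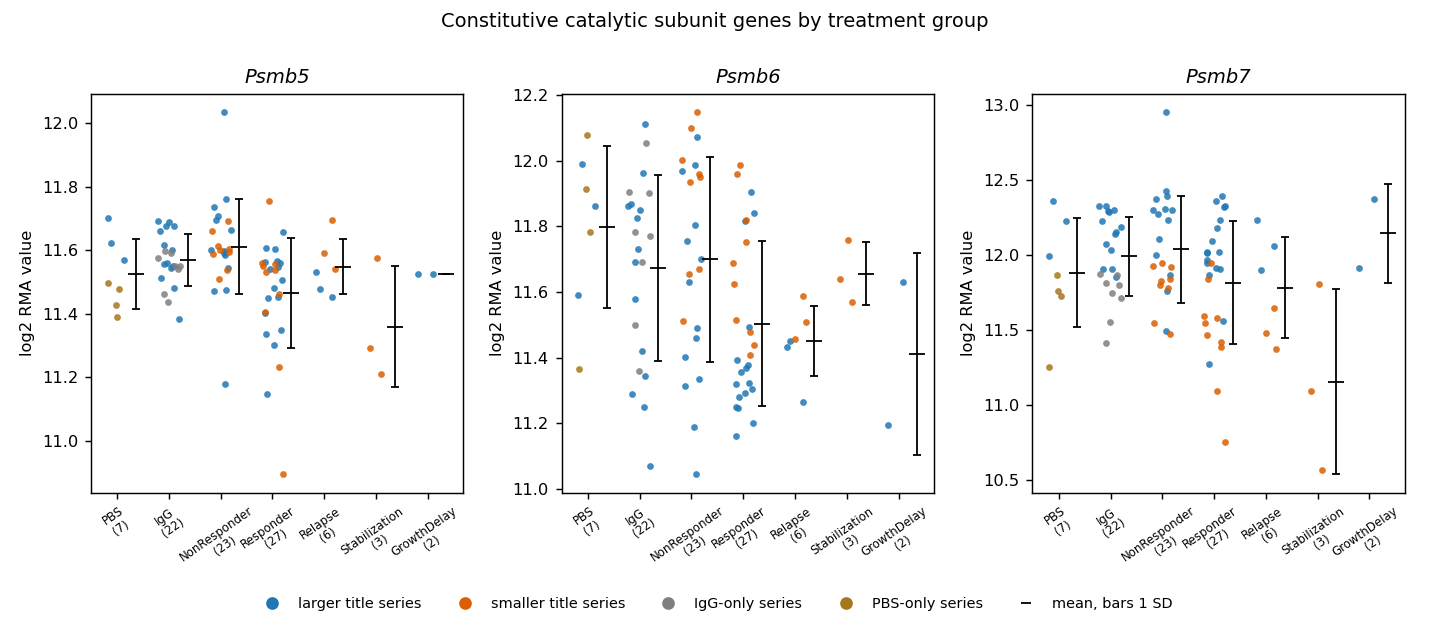
Log2 RMA values of Psmb5, Psmb6 and Psmb7 in the 7 groups, 1 point per array coloured by title series, with the mean and 1 SD beside each group. The Responder mean is below the NonResponder mean in each panel, and single low Responder arrays reach 10.89 (Psmb5) and 10.75 (Psmb7).

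Among the other proteasome genes more were called lower than higher in Responder tumours. Of the 41 other genes, 22 (53.7%) were called lower and 2 higher, with a median difference of -0.16 against -0.06 over all genes. After the array medians were set equal 33 of the 41 were called lower and 0 higher, against 50.2% of all genes lower. Among bright genes, those with a mean of at least 10, 30.2% of 2273 were called lower and 19.4% higher, and 18 of the 33 other proteasome genes in that range (54.5%) were lower. In the alpha ring, which gates the core, 4 of 7 genes were called lower (Psma1, Psma3, Psma4, Psma7). All 7 differences were below 0, from -0.33 (Psma7) to -0.15 (Psma5). Other bright probe sets of Psma5 (mean 12.15) and Psma6 (mean 11.83) were called lower, at -0.32 and -0.27 (limma adjusted p = 0.0294 and 0.0333). Of the structural beta genes Psmb1 (-0.19 ± 0.05) and Psmb2 (-0.23 ± 0.08) were called lower, and Psmb3 (-0.04) and Psmb4 (-0.09) were not called. A second probe set of Psmb3, equally bright (mean 11.30), was called lower (-0.17, limma adjusted p = 0.0171). That of Psmb4 (mean 11.75) was at 0.02 and not called.

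In the cap, 5 of the 6 ATPase genes, which unfold and thread the substrate, were called lower: Psmc1, Psmc2, Psmc3, Psmc4 and Psmc6, from -0.11 (Psmc1) to -0.33 (Psmc6). Psmc5 was the exception, at 0.06 ± 0.05. A second Psmc2 probe set, equally bright (mean 11.50), was at -0.06 and not called. A second bright Psmc4 probe set (mean 10.25) was at 0.006 and not called, so these falls hold only for the probe sets used. The 11 non-ATPase genes were divided. Psmd6 (-0.24 ± 0.06), Psmd8 (-0.19 ± 0.06) and Psmd14 (-0.31 ± 0.10), the deubiquitinase of the lid, were called lower. Psmd2, a scaffold of the cap base, ran from 11.12 through 11.60 to 11.94 in Responder and from 10.89 through 11.30 to 11.78 in NonResponder arrays and rose by 0.20 ± 0.06 (limma adjusted p = 0.0090). Psmd11, a lid subunit, rose by 0.09 ± 0.04 (0.0397). A second Psmd11 probe set, nearly as bright (mean 10.88), was called higher too (0.20, limma adjusted p = 0.0335). Those with means of 9.83, 9.27 and 6.12 were not called. Dimmer probe sets of Psmd11, with means of 3.27, 4.98 and 6.00, were called lower, so its rise holds only for its brightest probe sets. A dim probe set of Psma1 (mean 6.01) was likewise called the other way. Among genes whose brightest probe set was called, 9 further probe sets were called in its direction and these 4 against it. The remaining further probe sets of those genes were not called. Psmd1, Psmd3, Psmd4, Psmd7, Psmd12 and Psmd13 were not called, with differences from -0.16 (Psmd7) to 0.11 (Psmd3).

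Chaperones that build the cap base and the core were among the clearest falls. Psmd9, a base assembly chaperone and the member with the smallest p, ran from 8.09 through 8.73 to 9.46 in Responder and from 8.29 through 9.09 to 9.45 in NonResponder arrays, a fall of 0.33 ± 0.08 (limma adjusted p = 0.0016). Psmd10, another base chaperone that is also known as the oncoprotein gankyrin, fell by 0.54 ± 0.16 (0.0053). It was picked out after its values had been seen, and its Responder range of 8.26 to 11.33 was wider than its NonResponder range of 8.97 to 11.47. Psmd5, also a base chaperone, was at -0.11 and not called, and Paaf1, listed among the assembly genes, was not measured. Outside the set, 4 of 5 measured assembly genes of the core were called lower: Psmg1 (-0.32), Psmg2 (-0.31), Psmg3 (-0.35) and Psmg4 (-0.42), while Pomp, the maturation factor of the core, was at -0.16 (limma adjusted p = 0.061). Of 7 factors that dock on the proteasome, Ubqln2 (0.19) and Ecpas (0.09) were called higher and none lower. The transcription factors Nfe2l1 (0.30) and Nfe2l2 (0.13), which drive proteasome genes under stress, and Stat3 (0.47) were called higher, opposite in sign to most of the core genes.

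Of the remaining activators and the inhibitor, only Psme3 was called on its brightest probe set. Psme3, which forms a nuclear activator, was lower by 0.16 (-0.16 ± 0.07, limma adjusted p = 0.0438), a call that was lost without the 4 arrays of low melanocyte score (-0.12, adjusted p = 0.087). Psme4, a single-chain activator, was at 0.09 ± 0.07, and Psmf1, an inhibitor of the core, at 0.06 ± 0.04; neither was called. Dimmer probe sets of Psmf1 were called higher (0.28, limma adjusted p = 0.0013, and 0.24, 0.0051). Psmb11 was called lower (-0.16) at its dim level, and Psma8 (-0.04) was not called. Of the genes that share only the name, Psmc3ip was lower by 0.55 (-0.55 ± 0.15), the lowest difference in the set, and Psme3ip1 was at -0.10 and not called.

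**Figure D3:**
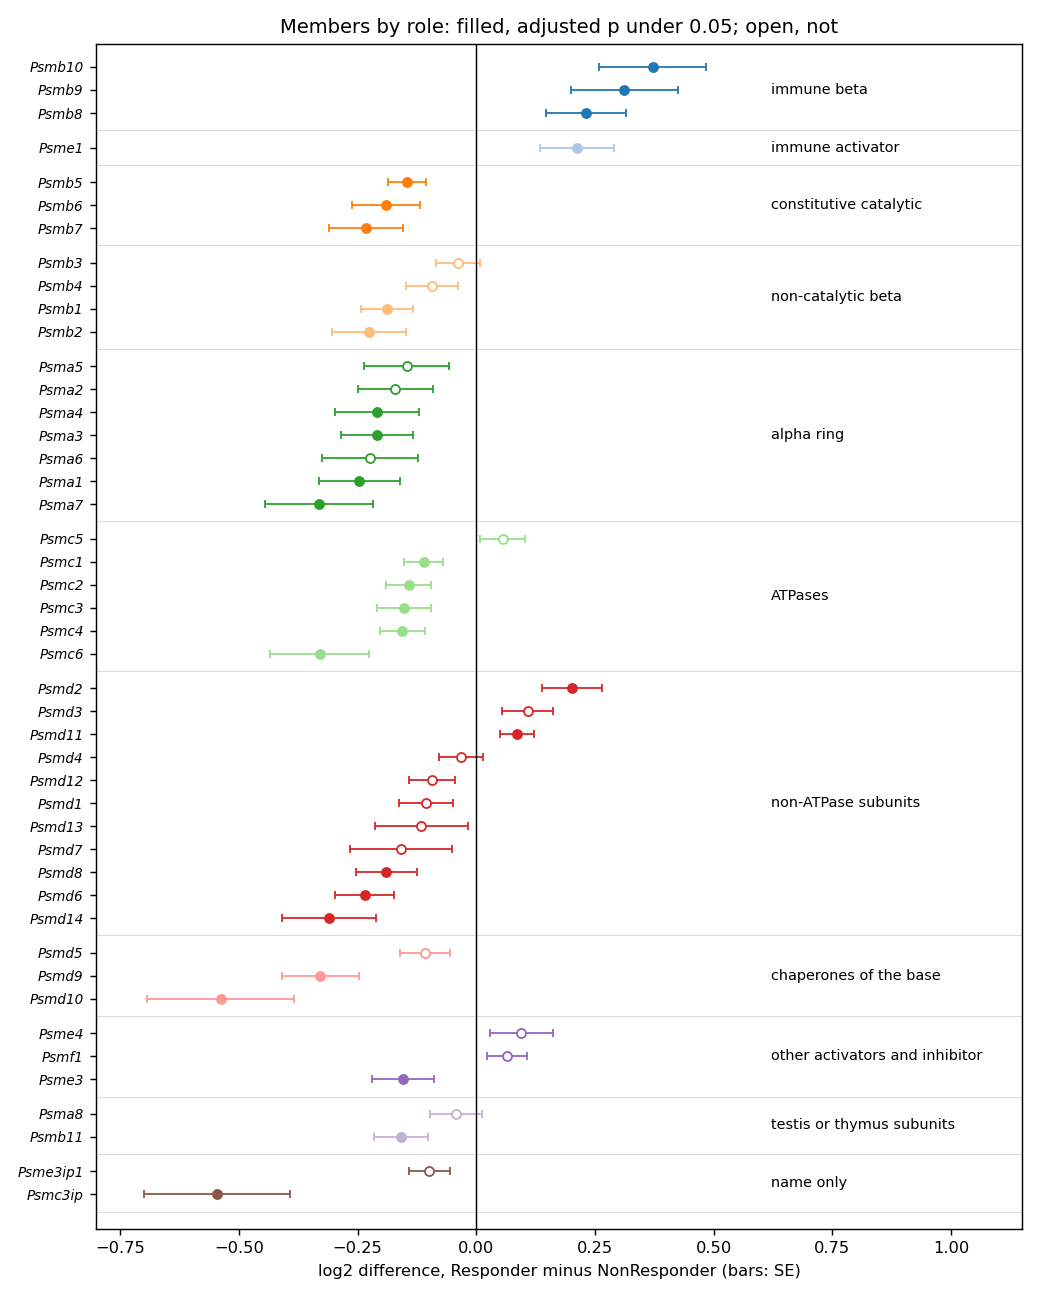
Log2 difference between Responder and NonResponder for the 45 genes, grouped by role; points are estimates of the fit with title series as a term, bars are 1 SE, and filled points have an adjusted p under 0.05. The 4 immune genes lie at 0.21 to 0.37, while 35 of the other 41 lie below 0.

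The Responder difference was estimated separately in each title series, and the difference between the series did not pass its test. Inside the larger series no proteasome gene was called, against 0.616% of all genes called higher and 2.01% lower. The immune differences there were 0.31 ± 0.14 for Psmb10, 0.23 ± 0.14 for Psmb9, 0.17 ± 0.11 for Psmb8 and 0.15 ± 0.10 for Psme1, and 1 of the 4 (Psmb10) and 8 of the other 41 had an unadjusted p under 0.05. Inside the smaller series the differences were 0.47 ± 0.18, 0.44 ± 0.18, 0.32 ± 0.14 and 0.32 ± 0.13. There Psmb10 (limma adjusted p = 0.0366) and Psme1 (0.0427) were called higher, Psmb9 (0.0505) and Psmb8 (0.0558) were not, and 16 of the other 41 were called lower, against 14.3% of all genes higher and 22.4% lower. In this series 8 of 10 Responder arrays exceeded all 9 NonResponder arrays in Psmb10, 9 in Psmb8, 6 in Psmb9 and 5 in Psme1. In the larger series 5 of 17 exceeded all 14 in Psmb10, 4 in Psmb9, 3 in Psmb8 and 0 in Psme1. Above the NonResponder median there lay 11 of 17 in Psmb10, Psmb9 and Psme1, but only 8 of 17 in Psmb8.

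The difference between the series was called for no gene (0% in either direction by limma, 2418 genes at an unadjusted p under 0.05). For the immune genes it was 0.15 (Psmb8) to 0.21 (Psmb9), with intervals that include 0, such as -0.29 to 0.63 for Psmb10. None of the 4 immune genes and 2 of the other 41 had an unadjusted p under 0.05 in that test. Without the 4 arrays of low melanocyte score the picture by series changed. In the larger series 13 of the other 41 were then called lower, against 14.4% of all genes. No immune gene was called there, at 0.18 to 0.33, against 9.66% of all genes higher. In the smaller series all 4 immune genes were called higher, at 0.39 to 0.64, against 5.96% of all genes. None of the other 41 was called there, against 5.85% of all genes lower, a share that was 22.4% with all arrays. NonResponder 14 lies in the larger series and the other three arrays in the smaller. Leukocyte and T cell scores were further apart in the smaller series as well: Responder exceeded NonResponder by 1.69 and 1.58 there and by 0.90 and 0.76 in the larger series, and the part of these cells in the difference between the series was not tested.

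**Figure D4:**
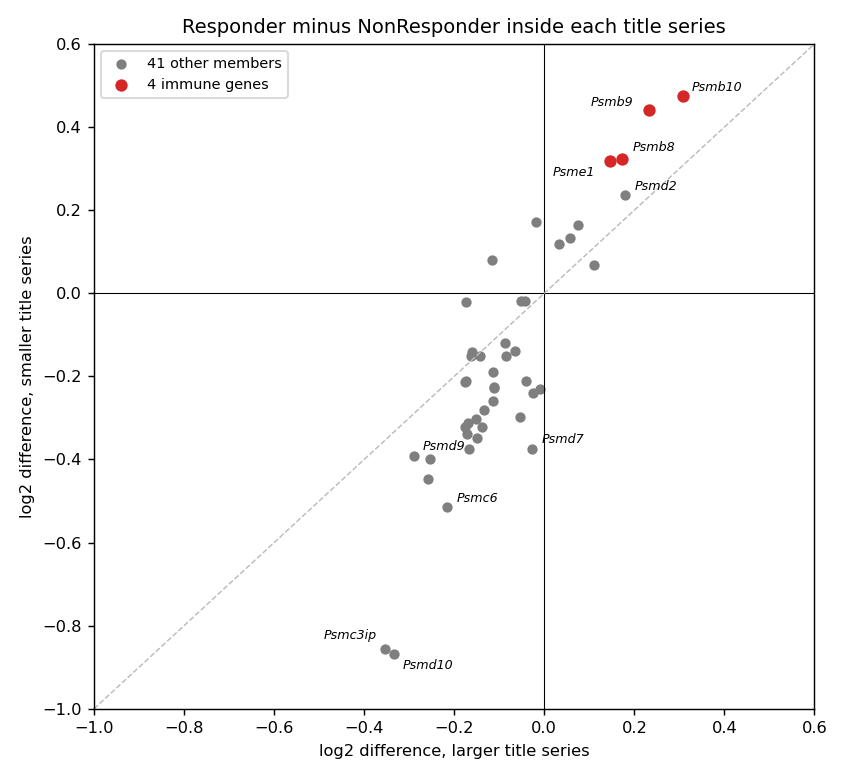
Log2 difference between Responder and NonResponder in the smaller title series (vertical) against the larger (horizontal), 1 point per gene, with the 4 immune genes in red; the dashed line marks equal differences. The immune genes lie above 0 on both axes, at 0.15 to 0.31 and 0.32 to 0.47, and Psmd10 and Psmc3ip lie lowest.

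Because a level cannot be compared between probe sets, the immune genes were set against the rest by how the gap between their means moved from group to group. In the smaller series the mean of the 4 immune genes minus the mean of the 41 others was 1.51 ± 0.15 (SD) in Responder and 0.91 ± 0.14 in NonResponder arrays, and all 10 Responder arrays exceeded all 9 NonResponder arrays. In the larger series it was 1.40 ± 0.37 and 1.07 ± 0.43, and 14 of 17 Responder arrays exceeded the NonResponder median. Both terms contributed: in the smaller series the immune mean was 0.39 higher and the mean of the others 0.21 lower in Responder, and in the larger series 0.21 higher and 0.11 lower. The gap between each inducible gene and the gene it replaces moved the same way. Psmb8 minus Psmb5 was 0.48 higher in Responder in the smaller series and 0.32 higher in the larger, Psmb9 minus Psmb6 was 0.66 and 0.41 higher, and Psmb10 minus Psmb7 was 0.80 and 0.48 higher. These gaps restate the differences above on each array and carry no test of their own.

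**Figure D5:**
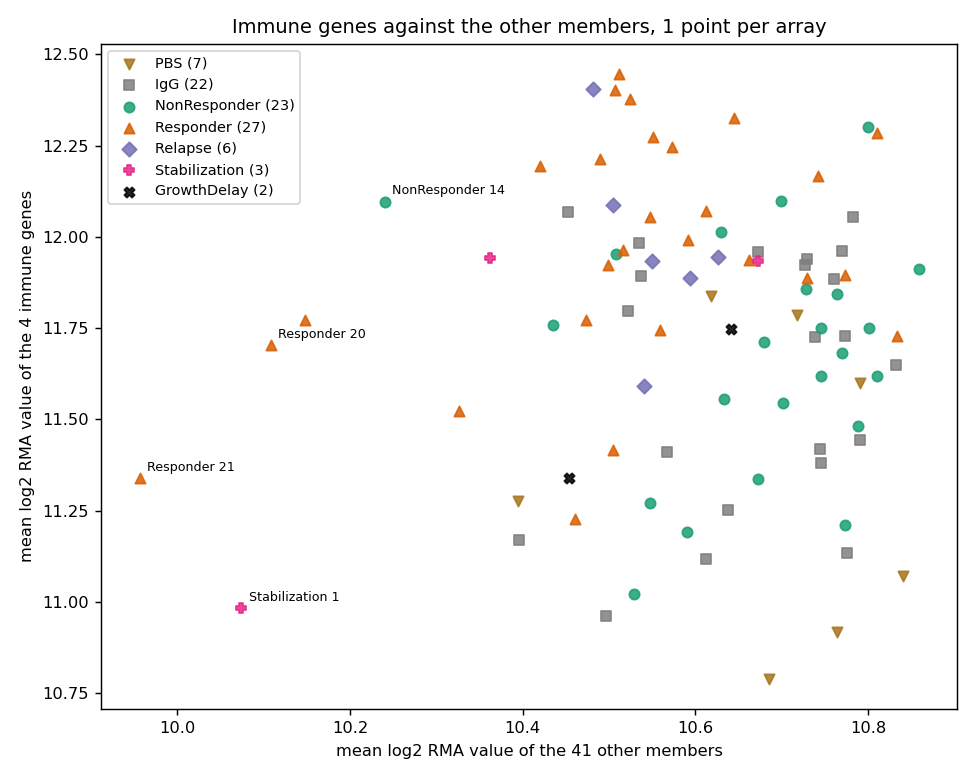
Mean log2 RMA value of the 4 immune genes (vertical) against that of the 41 other genes (horizontal), 1 point per array, with symbols for the 7 groups. Responder 20, Responder 21, NonResponder 14 and Stabilization 1, the arrays of low melanocyte score, lie to the left at 9.96 to 10.24, and the Relapse arrays lie among the Responder arrays.

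Across arrays within a group, the immune genes were correlated with Ifng and, in the larger series, with the general leukocyte gene Ptprc. Values were taken as deviations from the mean of each group and title series over 90 arrays, and 15 such relations were computed. The permutations ran over all arrays, not within a group. Ifng was dim in PBS, IgG and NonResponder arrays (means 4.47, 4.89 and 5.07), under the lowest array median of 5.71. Its SD was 0.41 in PBS and 1.18 in Responder, so the groups do not weigh equally in these relations. With Ifng, Pearson's r of the 4 immune genes was 0.66 to 0.72 and Spearman's rho 0.69 to 0.75, each with a permutation p of 1e-05 for r, the smallest that the permutations can give, and an adjusted p of 3e-05. Without the 2 arrays farthest in Ifng r was 0.64 to 0.70, and without the 4 arrays of low melanocyte score it was 0.69 to 0.73. With all arrays of a series kept, r was 0.69 to 0.72 inside the larger series and 0.49 to 0.64 inside the smaller. With Ptprc, r was 0.39 to 0.45 (rho 0.43 to 0.46) over all arrays and 0.54 to 0.60 within the larger series. Within the smaller it was -0.39 to -0.10, so the relation did not hold in both. Without the 4 arrays of low melanocyte score r was 0.54 to 0.62, a setting that was not computed by series. With the melanocyte gene Pmel, r was 0.05 to 0.18 and rho -0.13 to -0.01 over all arrays. It was -0.27 to -0.17 inside the larger series and 0.52 to 0.80 inside the smaller, so no relation held in both. Without the 4 arrays of low melanocyte score r with Pmel was -0.22 to -0.15. For Psmb5 no relation to Ifng passed the threshold (r = -0.01, permutation p = 0.891, rho = 0.04, permutation p = 0.716; -0.15 inside the larger series, 0.18 inside the smaller). With Pmel its r was 0.63 (adjusted permutation p = 3e-05) and its rho 0.37 (0.00067), with 0.46 inside the larger series and 0.85 inside the smaller. It was 0.49 without the 2 farthest arrays, Responder 20 and 21, and 0.24 without the 4 arrays of low melanocyte score. With Ptprc its r was -0.35 (adjusted permutation p = 0.0019) and its rho -0.20 (0.0844, past the threshold for r only), with -0.24 and -0.75 within the series, and -0.06 without those 4 arrays.

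Against isotype control the Responder tumours showed part of the same pattern. Psmb10 ran from 10.30 through 11.08 to 11.73 in IgG arrays and was 0.42 ± 0.14 higher in Responder (limma adjusted p = 0.0147). Psme1 was 0.23 ± 0.10 higher (0.0494), whereas Psmb8 (0.21 ± 0.10, 0.0877) and Psmb9 (0.19 ± 0.14, 0.2641) were not called. Of the other 41 genes 13 were called lower and 1, Psmc5 (0.15 ± 0.06), higher, against 14.5% of all genes higher and 22.8% lower. After the medians were set equal those shares were 11.1% and 34.2%, and 20 of the 41 were called lower. Psmd9 was lower by 0.33 (-0.33 ± 0.10), Psmb6 by 0.23 (-0.23 ± 0.09) and Psmb5 by 0.12 (-0.12 ± 0.05), while Psmb7 (-0.14 ± 0.09) was not called. This comparison borrows the smaller series, which holds no IgG array, through the title series term. Read directly inside the larger series, Psmb10 was the immune gene called (0.40 ± 0.14, limma adjusted p = 0.0354) and 5 others were lower (Psma8, Psmb11, Psmb2, Psmd14, Psmd9), against 10.9% of all genes higher and 16.5% lower. In the same arrays the leukocyte score was 0.80 higher in Responder, the macrophage score 0.64 higher and the T cell score 0.95 higher, with 11 of 17 Responder arrays above all IgG arrays in the last. Their part in these differences was not tested. Both this comparison and the one with NonResponder tumours use the same Responder arrays.

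NonResponder tumours and IgG controls were not distinguished by any gene in limma (0% in either direction), with 838 genes at an unadjusted p under 0.05, none of them a proteasome gene. Psmb8 was at -0.02 ± 0.11, Psmb9 at -0.12 ± 0.14, Psmb10 at 0.05 ± 0.14 and Psme1 at 0.02 ± 0.10. The intervals still allow sizable differences, from -0.23 to 0.33 for Psmb10 and from -0.40 to 0.15 for Psmb9.

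Relapse tumours, which had regrown, lay near the Responder tumours in their immune genes. Psmb10 was 12.01, 11.44 and 11.14 in the Relapse arrays of the larger series and 11.63, 11.63 and 11.80 in those of the smaller, with a mean of 11.61 ± 0.30 (SD, n = 6) against 11.50 ± 0.40 in Responder. Psmb8 was 12.55, 12.05 and 11.80 and then 12.28, 12.29 and 12.32. All of these lay inside the Responder range. Most also lay inside the NonResponder range, which was 10.34 to 11.72 for Psmb10 and 11.29 to 12.52 for Psmb8. Relapse minus Responder was called for no gene (0% in either direction by limma, 803 genes at an unadjusted p under 0.05, among them 2 of the other 41 and no immune gene). The immune differences ran from -0.10 ± 0.12 (Psme1) to 0.10 ± 0.18 (Psmb10). The intervals were -0.25 to 0.45 for Psmb10 and -0.18 to 0.35 for Psmb8, whose lower bounds lie above falls of the size by which NonResponder lay under Responder (0.37 and 0.23). They were -0.38 to 0.33 for Psmb9 and -0.35 to 0.14 for Psme1, which include falls of that size (0.31 and 0.21).

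Against NonResponder the Relapse differences were 0.47 ± 0.18 for Psmb10, 0.32 ± 0.14 for Psmb8, 0.29 ± 0.18 for Psmb9 and 0.11 ± 0.13 for Psme1. None was called; the limma adjusted p was 0.0534 for Psmb10 and 0.0785 for Psmb8. Of the other 41 genes 2 were called higher, Psmd2 (0.29 ± 0.10) and Psmd3 (0.25 ± 0.09), and 3 lower, Psma6 (-0.46 ± 0.16), Psma8 (-0.25 ± 0.09) and Psmb1 (-0.27 ± 0.09), against 8.43% of all genes higher and 11.9% lower. Those shares were 4.38% and 36% with equal medians and 1.83% and 5.46% after quantile normalization. Each of these counts rests on single arrays. Leaving out 1 Relapse array at a time gave 0 to 4 others higher, 0 to 3 lower and 0 to 1 immune gene higher. Without the 4 arrays of low melanocyte score 2 immune genes, 5 others higher and 14 lower were called. Shares over all genes were not computed in these settings. Relapse arrays had a leukocyte score above the NonResponder median of their series in 6 of 6, which moved with the immune genes here too, and its part was not tested.

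Stabilization tumours differed sharply among themselves. Psmb10 was 10.47, 11.52 and 11.44 in Stabilization 1, 2 and 3, Psmb9 was 10.79, 11.98 and 12.09, and Psmb8 was 11.36, 12.17 and 12.10. Stabilization 1 thus lay below all 9 NonResponder arrays of its series in the mean of the immune genes, while the other two lay above all 9. Averaged, the immune genes stood at -0.03 (Psmb8 and Psmb10) to -0.11 (Psme1) against NonResponder, none called. Without Stabilization 1 the same differences were 0.16 (Psme1), 0.23 (Psmb8), 0.30 (Psmb10) and 0.32 (Psmb9), and without Stabilization 2 or 3 they lay below 0, down to -0.33 for Psmb9. The leukocyte scores were 12.26, 12.12 and 9.82 and the T cell scores 8.18, 9.50 and 6.92 in Stabilization 1, 2 and 3. All 3 leukocyte scores exceeded those of the 9 NonResponder arrays of the series, by 2.02 on average, also in Stabilization 1, the array with the lowest immune genes of the 3.

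Of the other 41 genes 14 were called lower and none higher in Stabilization against NonResponder, against 11.9% of all genes lower and 10.5% higher, or 19.7% and 9.1% with equal medians. The falls were led by Psmc3ip (-1.20 ± 0.34), Psmd10 (-1.09 ± 0.35) and Psmb7 (-0.58 ± 0.17). Psmb7 was 10.57, 11.10 and 11.81 in the 3 arrays, against a NonResponder minimum of 11.47, and Psmd10 was 8.63, 9.81 and 10.85. The count was 0 without Stabilization 1, 1 without Stabilization 2 and 24 without Stabilization 3, and shares over all genes were not computed in these settings. The melanocyte scores of the 3 arrays were 7.36, 9.50 and 10.58, in the same order as Psmb7 and Psmd10. The part of these scores and of the leukocyte scores in these falls was not tested.

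GrowthDelay tumours are given as values only, since there were 2 arrays. Psmb8 was 11.90 and 11.62, Psmb9 11.89 and 11.14, Psmb10 11.27 and 10.83, and Psme1 11.93 and 11.76. Psmb5 was 11.53 in each, Psmb6 11.63 and 11.19, and Psmb7 12.38 and 11.91. All of these lay inside the NonResponder range. All but the lower Psmb9 value, 11.14, lay inside the Responder range as well.

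Between PBS and IgG controls limma with title series as a term called no proteasome gene (array weights called 3 of the other 41 lower), and it called 1 gene of the whole array higher (0.0055%) and none lower (0%), with 240 genes at an unadjusted p under 0.05, of which 1 was among the other 41. With title series as a term, only the 3 PBS arrays of the larger series carry this difference. The immune genes stood at -0.01 ± 0.19 (Psmb8), 0.08 ± 0.25 (Psmb9), 0.07 ± 0.25 (Psmb10) and 0.07 ± 0.18 (Psme1). The PBS arrays outside the larger series were lower: Psmb10 averaged 10.41 ± 0.23 (SD, n = 4) there and 11.12 ± 0.35 (n = 3) in the larger series, and Psmb9 averaged 10.87 ± 0.30 and 11.93 ± 0.06. The 4 arrays form a title series that holds no other group, so treatment and series cannot be told apart for them.

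In the order of group means, Psmb8 and Psmb10 were highest in Relapse (12.21 and 11.61) and next in Responder (12.13 and 11.50), while Psmb9 and Psme1 were highest in Responder (12.04 and 12.17) and next in Relapse (12.01 and 12.07). PBS was lowest for all 4, at 11.55 (Psmb8), 11.32 (Psmb9), 10.71 (Psmb10) and 11.71 (Psme1). These means pool the title series. Inside the larger series the PBS means of Psmb9 (11.93) and Psmb10 (11.12) lay above those of IgG (11.85 and 11.05) and GrowthDelay (11.51 and 11.05). Between those ends the NonResponder, IgG, Stabilization and GrowthDelay means lay between 11.76 and 11.90 for Psmb8 and between 11.04 and 11.14 for Psmb10, spans smaller than the SD of the NonResponder arrays (0.31 and 0.35). For Psmb5 the order ended with Responder (11.47 ± 0.17) and Stabilization (11.36 ± 0.19), below the 4 means between 11.53 and 11.57 and the NonResponder mean of 11.61 ± 0.15.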

How the data were processed

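RNA from whole tumours was amplified, labelled with biotin and hybridised to Affymetrix mouse arrays, 1 array per sample. The values are log2 probe set signals that the authors deposited after RMA normalization, per the submitters' processing notes; which arrays were normalized together is not given in the sources used here. Of 45101 probe sets, 34945 carried a single symbol in the platform annotation, 932 carried several, 9160 were not listed and 64 were controls. The brightest probe set stood for each gene. Differences were fitted over all 18193 genes with limma 3.58.1 in R 4.3.3, with group and title series as terms, two-sided, and Benjamini-Hochberg adjustment over all genes; a gene was called at an adjusted p under 0.05. Confidence intervals are 95% intervals of 1.96 SE. A further fit with a mean per group and series gave the differences inside a series. Correlations used 100000 permutations. The fits were tested on simulated data. Cell scores are means of log2 values of marker lists. The genes always named were the immune, constitutive catalytic and activator or inhibitor genes, and then those with the smallest p in each direction; others are named to account for a role. The members, lists and rules were chosen with earlier results of these data known. Some genes of the lists are not reported here. Protein sequences were not analysed here. Arrays give no read depth; their number and the signal over background limit the precision. Alternatives were no series term, other scalings, a dim filter, array weights, another probe set rule and left-out arrays.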

Additional observations from a re-analysis of the deposited data

Results flagged for a closer look

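In the groups of 4 to 10 arrays, PBS and Relapse, genes named by the rule above were tested for an array far from its group. The scores and the remaining members of the 45 were not tested. Of 50 pairs of a gene and a group, 3 stood apart, and chance marks about 1 in 20. Psmd3, a cap subunit, was 10.3323 in PBS 1, where the nearest other PBS array was at 9.81. Psmb11, the thymus subunit, was 4.10332 in PBS 7 against a nearest value of 3.84, at a dim level. Psmd8, a lid subunit, was 11.0642 in PBS 5 against a nearest value of 11.92. Members left untested can hold distant arrays too: Psmd13 in PBS ran from 6.86 through a median of 9.76 to 10.02.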

How the results depend on the processing

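No paired analysis was possible because the sample titles are running numbers and the replicate numbers used here only name arrays. In Responder against NonResponder the 4 immune genes called became 1 with equal medians, 0 inside the larger series and 2 inside the smaller. The 2 other genes called higher became 1 without the series term, after quantile normalization, and without 3 or 4 arrays of unusual makeup, 4 with array weights, and 0 with equal medians and inside either series. The 22 called lower became 0 inside the larger series. In Responder against IgG the immune count of 2 became 4 without the series term and 1 with equal medians, quantile normalization, the most variable probe sets or inside the larger series. The 1 other gene called higher became 0 without the series term, with equal medians, quantile normalization or inside the larger series, 5 with weights and 3 with the most variable probe sets, and the 13 lower became 20 with equal medians, 24 with weights, 8 with the most variable probe sets and 5 inside the larger series. In Relapse against NonResponder the immune count of 0 became 2 with weights or without 3 or 4 arrays. The others called higher (2) became 0 without the series term, with equal medians, quantile normalization or inside the larger series, 6 with weights and 5 without 3 or 4 arrays. The others called lower (3) became 0 without the series term or inside the larger series, 16 with equal medians, 1 after quantile normalization or inside the smaller series, 20 with weights, 12 without 3 arrays and 14 without 4. Leaving out each Relapse array gave ranges of 0 to 1, 0 to 4 and 0 to 3. In Stabilization against NonResponder array weights gave 4 immune genes higher, 5 others higher and 32 lower. The 14 lower became 9 with the most variable probe sets, 27 without 3 arrays, 0 without 4, and 0 to 24 when 1 Stabilization array was left out. Weights also gave 3 genes lower in PBS against IgG. Of these settings, shares over all genes were computed only for equal medians, quantile normalization and the fits inside a series. Counts under the other settings cannot be read as particular to these genes.

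Single differences changed sign as follows, and the cause was not tested. With the most variable probe set, Responder minus NonResponder was 0.12 for Psme3, -0.15 for Psmd11, 0.17 for Psmd9 and 0.0059 for Psmc4, Responder minus IgG was 0.052 for Psmd9, and Stabilization minus NonResponder was 0.35 for Psmd9; none was called. NonResponder minus IgG for Psmb8 was 0.031 without the series term, 0.010 with equal medians, 0.0046 with weights and 0.023 inside the larger series, and for Psme1 it was -0.022 without 3 or 4 arrays. Relapse minus Responder for Psmb9 was 0.0034 after quantile normalization and 0.047 inside the larger series, with -0.13 to 0.057 over left-out Relapse arrays. Relapse minus NonResponder for Psme1 was -0.0065 with equal medians. Stabilization minus NonResponder was, with weights, 0.24 (Psmb8), 0.25 (Psmb9), 0.30 (Psmb10) and 0.17 (Psme1), all called, and without 4 arrays 0.21, 0.30, 0.27 and 0.15, none called. It was 0.011 for Psmb10 without the series term, and 0.030 for Psmb8 and 0.028 for Psmb10 inside the smaller series. Over left-out Stabilization arrays the ranges were -0.18 to 0.23 (Psmb8), -0.33 to 0.32 (Psmb9), -0.22 to 0.30 (Psmb10) and -0.24 to 0.16 (Psme1). PBS minus IgG without the series term was -0.41 for Psmb9, -0.32 for Psmb10 and -0.16 for Psme1, and 0.031 for Psmb8 with weights; over left-out PBS arrays it was -0.11 to 0.24 for Psmb10 and -0.055 to 0.050 for Psmb8. A filter on dim genes changed no count by over 1.5 times. Psma8 and Psmb11 are near background, and a lack of change there says little.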

Other observations

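Markers of skin and lymph node showed few calls in Responder against NonResponder tumours. Of 5 keratinocyte genes, Krt1 (-0.18 ± 0.04) and Lor (-0.13 ± 0.05) were called lower, and of 3 measured lymph node stroma genes Madcam1 (-0.30 ± 0.06) was called lower (limma, adjusted p under 0.05 for each). Their Responder means were 4.65, 6.01 and 4.88, near the dim end of the array.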
